A study of Homo sapiens with 4 samples.

Results

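HCC1143 cells that had spent 24 h in paclitaxel were set against cells of the same line that had spent 72 h in the solvent alone. All cells of the paclitaxel 24 h library and of the DMSO 72 h library were used if under 20% of their unique molecular identifiers (UMIs, 1 per captured RNA molecule) came from mitochondrially encoded genes and at least 500 genes were detected. This left 776 cells after 24 h of paclitaxel and 783 cells after 72 h of DMSO, together 1559 of the 3180 kept cells of the study. HCC1143 is an established human cell line from a triple-negative breast carcinoma. The study holds 1 library for each of 4 groups, profiled on the 10x Chromium platform: 1 nM paclitaxel for 24 h, DMSO for 72 h, 1 nM paclitaxel for 72 h and DMSO for 24 h. All cells were grown in medium with serum, plated in 6-well dishes and left for 24 h to attach before drug or solvent was added. The libraries compared differ in drug and in time at once, so an effect of the drug and an effect of the longer culture cannot be told apart between them, and the levels of the remaining libraries are given beside theirs. With 1 library per group there is no replicate check and no test: the intervals given cover counting error only.

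Paclitaxel is a taxane that binds the beta-tubulin subunit inside microtubules and stabilises them, which disturbs the mitotic spindle. Cells of an epithelial line kept for days without passage grow denser, use up their medium and often slow their division. The comparison asks which genes set cells early in drug exposure apart from late untreated cells, and which genes the 2 populations hold at like levels.

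The kept cells had a median of 59670 UMIs and 7232 genes after 24 h of paclitaxel, and 54864 UMIs and 6902 genes after 72 h of DMSO. The summed totals were 55502535 UMIs after 24 h of paclitaxel and 49228982 UMIs after 72 h of DMSO, and levels are given as counts per 1000000 UMIs (CPM). A count of 0 would have allowed up to 0.0541 CPM after 24 h of paclitaxel and 0.0609 CPM after 72 h of DMSO. More cells passed 100000 UMIs in the paclitaxel 24 h library (168 cells, 21.6%) than in the DMSO 72 h library (95 cells, 12.1%). The 2 libraries shared no cell barcode with each other, while 4 barcodes of paclitaxel 24 h and 3 of DMSO 72 h also occurred in DMSO 24 h. Of the markers set for the label, all 7 epithelial and all 7 basal epithelial genes were measured in both libraries. Of the receptor genes, ESR1 had 0.306 CPM after 24 h of paclitaxel and 0.427 CPM after 72 h of DMSO, PGR was listed in neither table, and ERBB2, whose gene amplification triple-negative tumours lack, was measured at 20.4 CPM after 24 h of paclitaxel and 23.5 CPM after 72 h of DMSO. Of 11 leukocyte markers 4 were listed, with a summed 11.8 CPM after 24 h of paclitaxel and 11.4 CPM after 72 h of DMSO. The 5 endothelial markers summed to 6.02 CPM after 24 h of paclitaxel and 10.8 CPM after 72 h of DMSO.

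Cells after 24 h of paclitaxel held more RNA for tubulins, proteasome subunits, chaperones, mitochondrial ribosomal proteins and a few inflammatory and interferon-induced genes than cells after 72 h of DMSO, and less for cytosolic ribosomal proteins and several translation factors. Levels are CPM of the UMIs summed over the cells of a library. They are not centred, so the larger ribosomal share of DMSO 72 h, given below, lowers its other CPM. Ranks of the 4 libraries in CPM include this effect. A relative log2 ratio is the log2 ratio of 2 such levels, paclitaxel 24 h over DMSO 72 h, minus 0.12, its median over the 7967 genes that were listed in both tables and averaged 10 CPM or more over the 2 libraries. A gene was called higher or lower where this relative ratio was at least 1.5-fold and its exact 95% interval excluded no difference. By this rule 561 genes (7.04%) were higher and 196 genes (2.46%) were lower after 24 h of paclitaxel, 9.5% in either direction. At 2-fold, 71 genes were higher and 17 lower. A larger group of 4605 genes (57.8%) lay within 1.2-fold. The share of higher genes among those called, 74.1%, depends on the scaling: it was 92.3% with no centring, 86.5% with edgeR's TMM factors and 56.5% when totals were taken without ribosomal protein and mitochondrially encoded genes. Among cells of 30000 to 100000 UMIs in both libraries 317 genes were higher and 119 lower. The share of higher genes also went up with the level. It was 4.05% of genes at 10 to 20 CPM and 16% of genes at 500 CPM and above, with ribosomal protein and mitochondrially encoded genes left out. Of such genes from 50 CPM up, 12.0% were higher, with a median relative log2 ratio of 0.12. The list counts below are to be read beside 7.04% higher and 2.46% lower over all genes. Lists of abundant genes are to be read beside the larger shares at their level.

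**Figure D1:**
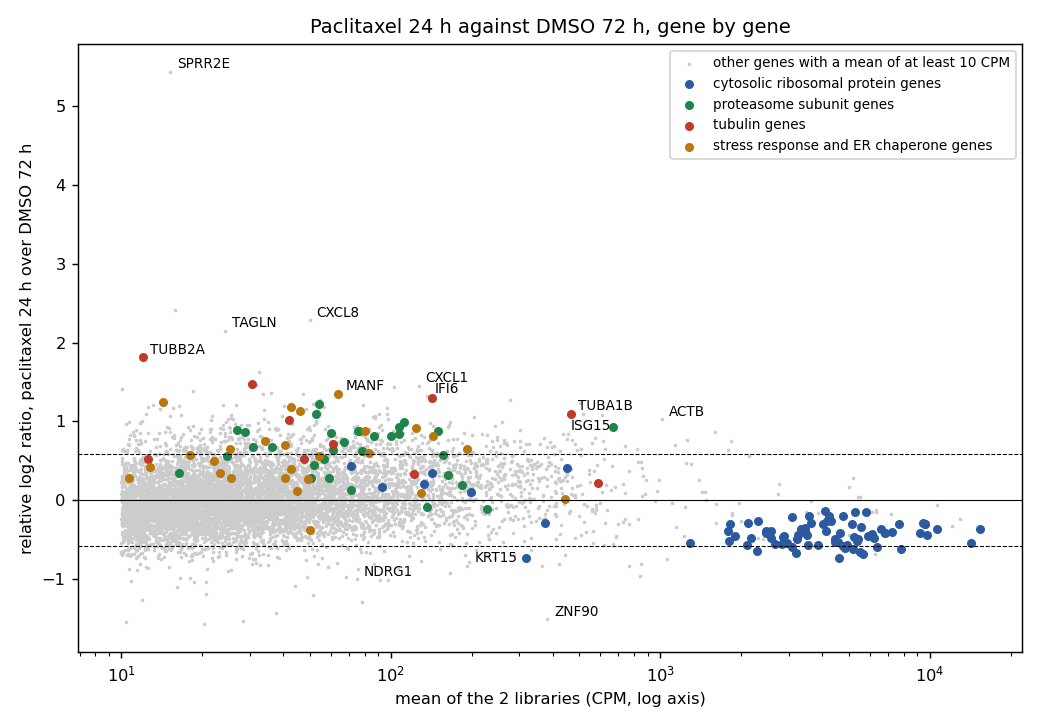
Each point is 1 of 7967 genes. The horizontal axis gives its mean level over the 2 libraries in CPM on a log axis, and the vertical axis its relative log2 ratio, paclitaxel 24 h over DMSO 72 h; dashed lines mark 1.5-fold. Tubulin, proteasome and stress response genes lie mostly above 0, and the abundant ribosomal protein genes form a band below 0 with a median of -0.42.

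Tubulins, the building blocks of microtubules and the target of paclitaxel, had the highest median of the lists. Of 14 listed tubulin genes 10 were measured, 6 were higher and none was lower, with a median relative log2 ratio of 0.87 against 0 over all genes. Summed over the list, tubulins held 1955 CPM after 24 h of paclitaxel and 1133 CPM after 72 h of DMSO, beside 2023 CPM after 72 h of paclitaxel and 2094 CPM after 24 h of DMSO. The DMSO 72 h library was thus the low one, and the other 3 lay close together. TUBA1B, an alpha-tubulin (chr12, GRCh38), had 653 CPM after 24 h of paclitaxel, 280 CPM after 72 h of DMSO, 497 CPM after 72 h of paclitaxel and 726 CPM after 24 h of DMSO, a relative log2 ratio of 1.10 (1.07 to 1.12). The beta-tubulin TUBB4B had 207 CPM after 24 h of paclitaxel and 77.5 CPM after 72 h of DMSO, beside 198 CPM after 72 h of paclitaxel and 210 CPM after 24 h of DMSO. TUBB2A, another beta-tubulin, had the largest ratio of the family at 1.81, with 19.1 CPM after 24 h of paclitaxel and 5.00 CPM after 72 h of DMSO. Both TUBB4B and TUBA1B showed the pattern of the summed list, low after 72 h of DMSO alone. The 4 measured members that were not called were TUBA1A, TUBE1, TUBB at 655 CPM after 24 h of paclitaxel and 519 CPM after 72 h of DMSO, and TUBA1C at 141 CPM after 24 h of paclitaxel and 103 CPM after 72 h of DMSO. TUBB3, a beta-tubulin of neurons that is also studied in taxane-treated tumours, stayed under the minimum with 3.03 CPM after 24 h of paclitaxel and 2.09 CPM after 72 h of DMSO. Tubulin genes are alike in sequence, so how reads that match several of them were counted bears on the split between members.

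Proteins that act on microtubules did not follow the tubulins as a list. Of 24 measured genes 3 were higher and none lower, with a median of 0.07. The higher ones were DYNLL1, a dynein light chain, at 600 CPM after 24 h of paclitaxel and 307 CPM after 72 h of DMSO, TBCB, a tubulin folding cofactor, and KIF2C, a microtubule depolymerase of mitosis. Stathmin, encoded by STMN1, had a ratio of 0.37 and was not called.

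Proteasome subunits, which form the protease that degrades ubiquitinated proteins, were mostly higher: 19 of 31 measured genes were called higher and none lower, against 7.04% higher over all genes. Their median was 0.68. The list summed to 3978 CPM after 24 h of paclitaxel, 2381 CPM after 72 h of DMSO, 3855 CPM after 72 h of paclitaxel and 4113 CPM after 24 h of DMSO, so again the DMSO 72 h library stood low and the other 3 lay close together. PSMB3, a beta-ring subunit of the core, had 77.9 CPM after 24 h of paclitaxel, 30.8 CPM after 72 h of DMSO, 79.5 CPM after 72 h of paclitaxel and 76.4 CPM after 24 h of DMSO, a relative log2 ratio of 1.22 (1.13 to 1.30). The alpha-ring subunit PSMA7 had 902 CPM after 24 h of paclitaxel and 434 CPM after 72 h of DMSO. The regulatory ATPase PSMC4 had 73.9 CPM after 24 h of paclitaxel and 31.9 CPM after 72 h of DMSO. PSMD4, a ubiquitin receptor of the proteasome, was not called, at 188 CPM after 24 h of paclitaxel and 138 CPM after 72 h of DMSO.

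**Figure D2:**
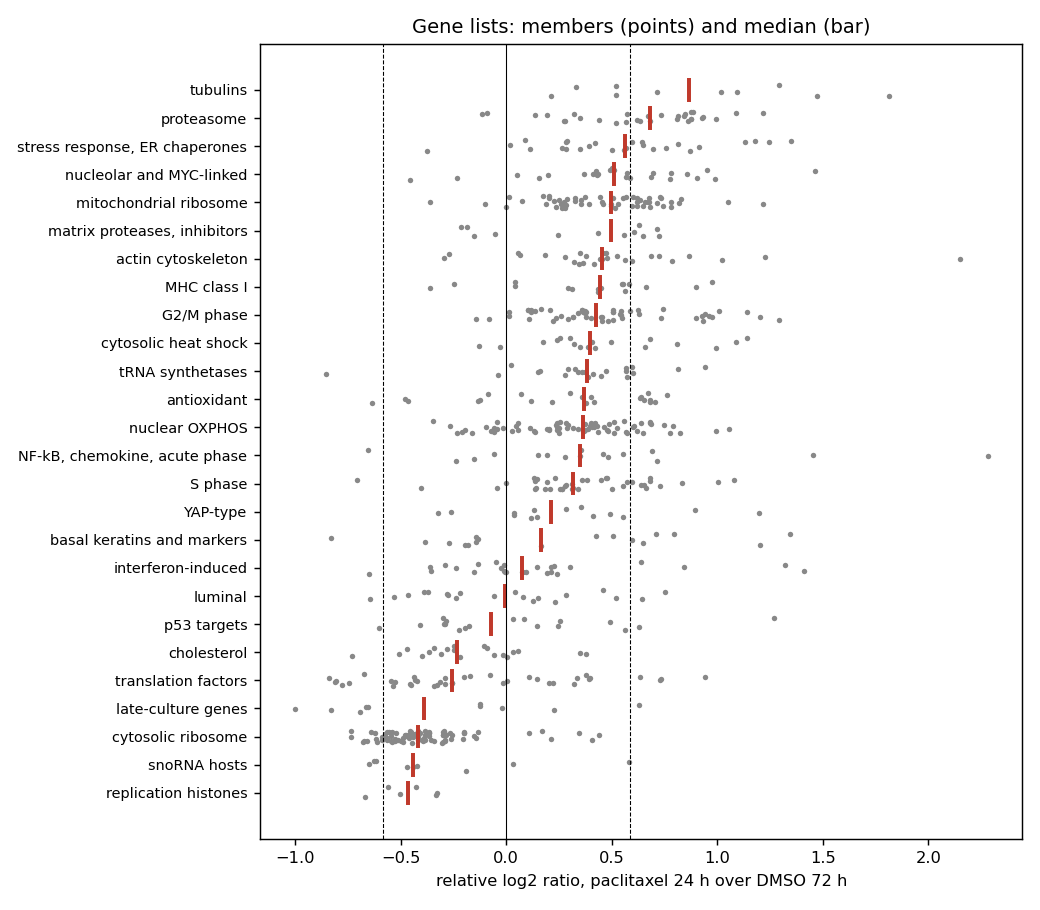
Each grey point is a measured member of the gene list named on the left, placed by its relative log2 ratio, paclitaxel 24 h over DMSO 72 h; red bars are list medians and dashed lines mark 1.5-fold. Medians run from 0.87 for tubulins to -0.46 for replication-dependent histones. Of 26 listed histone genes only 6 were measured, and 1 was called lower.

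Chaperones of the endoplasmic reticulum and genes of the integrated stress response were higher in part after 24 h of paclitaxel. Of 26 measured genes 12 were higher and none lower, with a median of 0.56. MANF, a secreted protein of the stressed endoplasmic reticulum, had 93.9 CPM after 24 h of paclitaxel, 33.8 CPM after 72 h of DMSO, 91.4 CPM after 72 h of paclitaxel and 84.5 CPM after 24 h of DMSO, a relative log2 ratio of 1.35 (1.27 to 1.43). HSPA5, the main HSP70 chaperone of that compartment, had 107 CPM after 24 h of paclitaxel and 53.7 CPM after 72 h of DMSO. HSP90B1, the HSP90 chaperone of the same compartment, had 167 CPM after 24 h of paclitaxel and 81.6 CPM after 72 h of DMSO. DNAJB11, a co-chaperone of HSPA5, had 80.4 CPM after 24 h of paclitaxel and 32.5 CPM after 72 h of DMSO. For each of these genes the DMSO 72 h library was the lowest of the 4. The amino acid genes of the stress response went the same way: ASNS, asparagine synthetase, had 20.6 CPM after 24 h of paclitaxel and 7.96 CPM after 72 h of DMSO. SLC3A2, a subunit of amino acid transporters, had 64.8 CPM after 24 h of paclitaxel and 27.1 CPM after 72 h of DMSO. SLC3A2 differed from the chaperones in standing highest after 72 h of paclitaxel, at 152 CPM.

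The promoters of HSPA5 and HSP90B1 are shown because these chaperones moved together and both hold the endoplasmic reticulum stress response element. The sequences are from RefSeq (GRCh38.p14), from 250 bases before to 50 bases after the annotated start, and capitals mark CCAAT followed after 9 free bases by CCACG, on either strand. HSPA5 lies at chr9:125241294-125241593 on the minus strand and HSP90B1 at chr12:103930160-103930459 on the plus strand.
HSPA5: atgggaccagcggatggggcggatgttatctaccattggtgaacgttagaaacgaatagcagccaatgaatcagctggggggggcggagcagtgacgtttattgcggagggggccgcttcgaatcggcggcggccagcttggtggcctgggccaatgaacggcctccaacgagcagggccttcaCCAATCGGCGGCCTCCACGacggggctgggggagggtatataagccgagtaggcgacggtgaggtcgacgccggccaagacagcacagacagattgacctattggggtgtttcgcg
HSP90B1: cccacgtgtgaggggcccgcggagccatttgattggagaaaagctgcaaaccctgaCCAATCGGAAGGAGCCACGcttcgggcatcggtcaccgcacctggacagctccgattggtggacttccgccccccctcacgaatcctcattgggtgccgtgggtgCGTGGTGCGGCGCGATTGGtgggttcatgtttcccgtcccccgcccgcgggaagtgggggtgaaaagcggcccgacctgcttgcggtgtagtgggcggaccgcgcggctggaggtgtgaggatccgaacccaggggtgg
The second match in HSP90B1 reads on the opposite strand. Of the stress list, 25 measured genes had a promoter in the RefSeq table, of which 4 held a match, against 10 of 6209 tested genes with a promoter (0.161%) and 0.0806% of all 27305 promoters. The promoters of MANF and DNAJB11 held no match to these letters. A match describes letters only.

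Cytosolic heat shock genes were higher in part, with 6 of 18 measured genes higher, none lower and a median of 0.40. HSP90AA1, the inducible cytosolic HSP90, had 724 CPM after 24 h of paclitaxel, 312 CPM after 72 h of DMSO, 526 CPM after 72 h of paclitaxel and 813 CPM after 24 h of DMSO. AHSA1, which activates the ATPase of HSP90, had 75.7 CPM after 24 h of paclitaxel and 31.5 CPM after 72 h of DMSO. DNAJA1, a co-chaperone of HSP70, had 156 CPM after 24 h of paclitaxel, against 71.6 CPM after 72 h of DMSO. The constitutive members did not follow: HSPA8 had a relative log2 ratio of -0.03 and HSP90AB1 one of 0.17. CACYBP, a co-factor of ubiquitin ligases that binds S100 proteins, was among the furthest apart of all genes, at 118 CPM after 24 h of paclitaxel and 40.2 CPM after 72 h of DMSO.

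Neutrophil-attracting chemokines showed the largest ratios among the inflammatory genes. CXCL1 had 190 CPM after 24 h of paclitaxel, 63.7 CPM after 72 h of DMSO, 358 CPM after 72 h of paclitaxel and 120 CPM after 24 h of DMSO, a relative log2 ratio of 1.45 (1.40 to 1.51). CXCL8 had 84.1 CPM after 24 h of paclitaxel, 15.9 CPM after 72 h of DMSO, 253 CPM after 72 h of paclitaxel and 32.2 CPM after 24 h of DMSO, a ratio of 2.28 (2.17 to 2.39). For both genes the order of the libraries was the same, with paclitaxel 72 h highest, paclitaxel 24 h next and DMSO 72 h lowest. Few cells held many of the UMIs of both genes, as given below, which the intervals do not cover. PLAUR, the urokinase receptor, had 128 CPM after 24 h of paclitaxel and 71.5 CPM after 72 h of DMSO. LCN2, an iron-sequestering acute phase protein, had 161 CPM after 24 h of paclitaxel and 91.4 CPM after 72 h of DMSO. The list of NF-kB targets, chemokines and acute phase genes as a whole was mixed: 4 of 16 measured genes were higher, CCL28 was lower, and the median was 0.35. CCL28, a mucosal chemokine, had 66.4 CPM after 24 h of paclitaxel and 95.8 CPM after 72 h of DMSO, beside 16.5 CPM after 24 h of DMSO.

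The promoters of CXCL1 and CXCL8 are shown because these chemokines had the largest ratios of the list and share a motif close to the start. Capitals mark GGAATTTCC, a palindromic kappaB site that was chosen after these sequences had been read. CXCL1 lies at chr4:73869143-73869442 and CXCL8 at chr4:73740319-73740618, both on the plus strand.
CXCL1: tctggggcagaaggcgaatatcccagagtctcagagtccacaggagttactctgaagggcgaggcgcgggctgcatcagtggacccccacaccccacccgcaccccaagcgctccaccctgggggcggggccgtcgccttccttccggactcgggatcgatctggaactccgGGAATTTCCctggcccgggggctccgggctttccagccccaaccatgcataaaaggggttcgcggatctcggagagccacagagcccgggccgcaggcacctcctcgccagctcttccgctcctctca
CXCL8: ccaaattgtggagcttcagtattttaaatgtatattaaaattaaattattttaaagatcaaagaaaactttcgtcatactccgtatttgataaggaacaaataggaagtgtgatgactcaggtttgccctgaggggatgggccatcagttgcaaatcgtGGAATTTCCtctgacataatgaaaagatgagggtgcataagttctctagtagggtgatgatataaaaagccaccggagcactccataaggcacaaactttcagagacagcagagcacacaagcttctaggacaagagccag
These letters, searched on both strands, were in 4 of the 10 measured list members with a RefSeq promoter, against 26 of 6209 tested genes (0.419%) and 0.472% of all promoters.

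Interferon-induced genes did not move as a list. Of 27 measured genes 4 were higher and 1 was lower, with a median of 0.07. IFI6, an interferon-induced mitochondrial protein, had 199 CPM after 24 h of paclitaxel, 73.3 CPM after 72 h of DMSO, 736 CPM after 72 h of paclitaxel and 37.1 CPM after 24 h of DMSO, a relative log2 ratio of 1.32 (1.26 to 1.37). ISG15, a ubiquitin-like modifier, had 579 CPM after 24 h of paclitaxel, 296 CPM after 72 h of DMSO, 1912 CPM after 72 h of paclitaxel and 192 CPM after 24 h of DMSO. In both genes the 2 paclitaxel libraries stood above the 2 DMSO libraries. IFI27 and BST2, which tethers budding viruses, were the other higher genes. BST2 had 64.4 CPM after 24 h of paclitaxel and 37.9 CPM after 72 h of DMSO, beside 6.16 CPM after 24 h of DMSO, so the 2 libraries compared both stood far above the early control. IFITM3, a membrane protein that restricts virus entry, had 459 CPM after 24 h of paclitaxel and 463 CPM after 72 h of DMSO and was not called. IRF9, a DNA-binding partner of STAT2, was lower, at 12.0 CPM after 24 h of paclitaxel and 17.3 CPM after 72 h of DMSO. The summed list stood at 2759 CPM after 24 h of paclitaxel and 2114 CPM after 72 h of DMSO, beside 6646 CPM after 72 h of paclitaxel and 1567 CPM after 24 h of DMSO.

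IFI6 and ISG15 are shown as the most abundant called genes of the interferon list. Capitals mark the core of the interferon-stimulated response element, a repeat of GAAA with 2 free bases between the copies, on either strand. IFI6 lies at chr1:27672143-27672442 on the minus strand and ISG15 at chr1:1013247-1013546 on the plus strand.
IFI6: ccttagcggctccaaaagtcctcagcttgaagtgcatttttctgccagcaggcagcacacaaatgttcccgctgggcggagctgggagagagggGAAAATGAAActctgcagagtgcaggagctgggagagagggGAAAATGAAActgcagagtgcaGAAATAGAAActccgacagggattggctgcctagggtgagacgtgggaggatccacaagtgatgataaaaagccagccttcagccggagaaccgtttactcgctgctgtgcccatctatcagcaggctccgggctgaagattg
ISG15: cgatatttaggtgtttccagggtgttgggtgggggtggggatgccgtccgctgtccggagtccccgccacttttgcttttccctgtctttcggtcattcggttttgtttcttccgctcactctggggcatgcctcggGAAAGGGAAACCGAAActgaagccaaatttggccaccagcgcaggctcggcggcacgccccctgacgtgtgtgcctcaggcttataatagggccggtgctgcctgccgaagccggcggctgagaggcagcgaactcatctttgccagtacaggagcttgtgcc
IFI6 held 3 matches, and the 2 matches of ISG15 overlap. The element was in 12 of the 21 measured interferon-induced genes with a RefSeq promoter, against 163 of 6209 tested genes (2.63%) and 3.65% of all promoters. Most of the 12 therefore belong to genes that were not called higher.

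Genes of antigen presentation by MHC class I gave a median of 0.44, with 3 of 16 measured genes higher (18.8%), against 7.04% higher over all genes. PSMB9, an immunoproteasome subunit, had 15.9 CPM after 24 h of paclitaxel and 7.45 CPM after 72 h of DMSO. PSME2, a proteasome activator, had 164 CPM after 24 h of paclitaxel and 80.8 CPM after 72 h of DMSO. HLA-B had 697 CPM after 24 h of paclitaxel and 468 CPM after 72 h of DMSO. B2M, the light chain, had 451 CPM after 24 h of paclitaxel and 334 CPM after 72 h of DMSO. Neither HLA-B nor B2M was called.

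The basal keratins KRT5, KRT6A, KRT6B and KRT17 were higher, whereas KRT15 was lower. KRT6A, a keratin of stressed and wounded epithelium, had 69.3 CPM after 24 h of paclitaxel, 25.0 CPM after 72 h of DMSO, 89.2 CPM after 72 h of paclitaxel and 51.7 CPM after 24 h of DMSO, a relative log2 ratio of 1.35 (1.25 to 1.44). KRT17 had 750 CPM after 24 h of paclitaxel, 397 CPM after 72 h of DMSO, 1615 CPM after 72 h of paclitaxel and 696 CPM after 24 h of DMSO. KRT6B had 417 CPM after 24 h of paclitaxel and 235 CPM after 72 h of DMSO. KRT5 had 116 CPM after 24 h of paclitaxel, against 70.8 CPM after 72 h of DMSO. In these 4 keratins DMSO 72 h had the lowest CPM of the 4 libraries, with KRT6B at 284 CPM after 24 h of DMSO. These CPM are not centred. KRT14, at 397 CPM after 24 h of paclitaxel and 257 CPM after 72 h of DMSO, stayed below the fold needed. KRT15, a keratin of basal progenitor cells in stratified epithelium, had 146 CPM after 24 h of paclitaxel, 239 CPM after 72 h of DMSO, 114 CPM after 72 h of paclitaxel and 64.3 CPM after 24 h of DMSO. KRT15 was thus the 1 keratin of the list that was highest in late untreated cells. Over the whole basal list 6 of 17 measured genes were higher and KRT15 alone was lower, with a median of 0.16. LAMA3, a laminin subunit of the epithelial basement membrane, was higher, and the subunit LAMB3 had a ratio of -0.13. In the luminal list 2 of 20 measured genes were higher, the adhesion molecule EPCAM and the keratin KRT18, ERBB3 was lower, and the median was -0.01.

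Genes of the actin cytoskeleton gave a median of 0.45, with 8 of 27 measured genes higher and none lower. TAGLN, an actin-binding protein of contractile cells, had 40.1 CPM after 24 h of paclitaxel, 8.29 CPM after 72 h of DMSO, 38.9 CPM after 72 h of paclitaxel and 58.2 CPM after 24 h of DMSO, a relative log2 ratio of 2.15 (2.0 to 2.31). A single cell held 12.2% of TAGLN UMIs after 24 h of paclitaxel and 10 cells held 34.2%, which the interval does not cover. After 72 h of DMSO these shares were 8.58% and 33.1%. MYL12A, a regulatory light chain of non-muscle myosin, had 724 CPM after 24 h of paclitaxel and 284 CPM after 72 h of DMSO. ACTB, beta-actin, had 1398 CPM after 24 h of paclitaxel and 631 CPM after 72 h of DMSO, while ACTG1, gamma-actin, had 1517 CPM after 24 h of paclitaxel and 1709 CPM after 72 h of DMSO and was not called. Of 14 measured genes known as YAP targets only ANKRD1 and CYR61 were higher. ANKRD1, an ankyrin repeat protein, had 57.2 CPM after 24 h of paclitaxel and 22.9 CPM after 72 h of DMSO. CYR61, a matrix-bound signalling protein, had 67.2 CPM after 24 h of paclitaxel and 33.2 CPM after 72 h of DMSO. MMP7, a secreted matrix protease of epithelia, had 392.5 CPM after 24 h of paclitaxel, 233 CPM after 72 h of DMSO, 479 CPM after 72 h of paclitaxel and 122 CPM after 24 h of DMSO.

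Nucleolar genes and genes of the mitochondrial ribosome were higher in part. Of 25 measured nucleolar and MYC-linked genes 10 were higher and none lower, with a median of 0.51. EBNA1BP2, a ribosome assembly factor, had 153 CPM after 24 h of paclitaxel, 51.9 CPM after 72 h of DMSO, 90.4 CPM after 72 h of paclitaxel and 181 CPM after 24 h of DMSO, a relative log2 ratio of 1.44 (1.38 to 1.5). LYAR, a nucleolar protein, had 47.3 CPM after 24 h of paclitaxel and 15.8 CPM after 72 h of DMSO. MYC itself was not called, at 173 CPM after 24 h of paclitaxel and 123 CPM after 72 h of DMSO. NME1, a nucleoside diphosphate kinase, had 401 CPM after 24 h of paclitaxel, 152 CPM after 72 h of DMSO, 260 CPM after 72 h of paclitaxel and 447 CPM after 24 h of DMSO. In EBNA1BP2 and NME1 the highest library was DMSO 24 h and the lowest DMSO 72 h. The mitochondrial ribosome had 22 of 57 measured genes higher and none lower, with a median of 0.50, and MRPL47 of its large subunit stood at 73.6 CPM after 24 h of paclitaxel and 29.1 CPM after 72 h of DMSO. Nuclear genes of oxidative phosphorylation had 14 of 72 higher (19.4%), none lower and a median of 0.37. Many of them are abundant, and over all genes at 100 to 500 CPM 12.4% were higher, with a median of 0.19. The 13 mitochondrially encoded genes gave a median of -0.06 with none called.

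Among redox genes 8 of 22 measured were higher and TKT, transketolase, was lower, with a median of 0.37. PRDX4, a peroxidase of the endoplasmic reticulum, had 113 CPM after 24 h of paclitaxel and 45.1 CPM after 72 h of DMSO. NQO1, a quinone reductase, had 163 CPM after 24 h of paclitaxel and 95.9 CPM after 72 h of DMSO. GADD45A, a stress and DNA damage gene, had 79.3 CPM after 24 h of paclitaxel, 30.2 CPM after 72 h of DMSO, 268.9 CPM after 72 h of paclitaxel and 57.9 CPM after 24 h of DMSO, a relative log2 ratio of 1.27 (1.19 to 1.36). It was not joined by the other p53 targets: only GADD45A and AEN of 18 measured genes were higher, CCNG2 was lower and the median was -0.07. CDKN1A, the p21 inhibitor of cyclin-dependent kinases, had 49.6 CPM after 24 h of paclitaxel and 42.9 CPM after 72 h of DMSO. MDM2, which targets p53 for degradation, had 92.2 CPM after 24 h of paclitaxel and 96.9 CPM after 72 h of DMSO. Neither of these was called. Of the immediate-early genes, FOSL1 and ATF3 were higher among 19 measured. FOSL1, a subunit of AP-1, had 53.2 CPM after 24 h of paclitaxel and 19.0 CPM after 72 h of DMSO, beside 63.8 CPM after 72 h of paclitaxel and 65.1 CPM after 24 h of DMSO. Of 22 measured glycolysis and hypoxia genes, TPI1 and ENO1 were higher, NDRG1 and P4HA1 were lower and the median was -0.02.

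**Figure D3:**
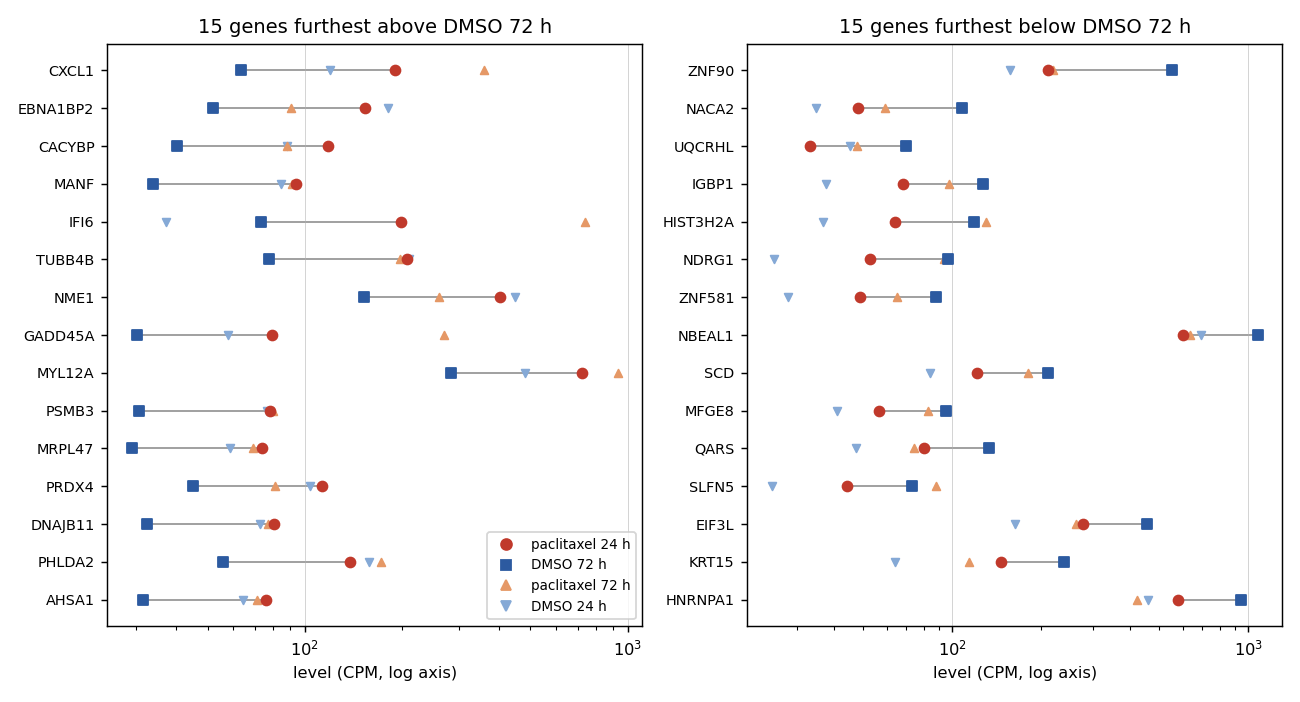
Levels in CPM on a log axis of the 15 genes with the highest (left panel) and the 15 with the lowest (right panel) relative log2 ratio among genes averaging 50 CPM or more, ribosomal protein and mitochondrially encoded genes left out. Large red circles are paclitaxel 24 h, large blue squares DMSO 72 h, and small symbols paclitaxel 72 h and DMSO 24 h. In the left panel DMSO 72 h is the lowest of the 4 libraries for all genes but IFI6, and in the right panel it is the highest for all but HIST3H2A and SLFN5.

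RNA for cytosolic ribosomal proteins took a smaller share of the UMIs after 24 h of paclitaxel. The median cell drew 33.1% of its UMIs from ribosomal protein genes after 24 h of paclitaxel and 40.6% after 72 h of DMSO, beside 27.5% after 72 h of paclitaxel and 27.0% after 24 h of DMSO. All 83 genes of the list were measured: 11 were lower and none higher, with a median of -0.42, and 77 lay below 0. RPL7A, of the large subunit, had 3647 CPM after 24 h of paclitaxel, 5581 CPM after 72 h of DMSO, 3012 CPM after 72 h of paclitaxel and 2558 CPM after 24 h of DMSO, a relative log2 ratio of -0.74 (-0.75 to -0.73). RPL3 had 4568 CPM after 24 h of paclitaxel and 6717 CPM after 72 h of DMSO, beside 3299 CPM after 72 h of paclitaxel and 2880 CPM after 24 h of DMSO. Of both genes, late untreated cells held the most and cells after 24 h of paclitaxel came next. The 6 genes above 0 were RPS26 and the paralogues RPL22L1, RPL26L1, RPL39L, RPL7L1 and RPS27L. Because a library's CPM sum to a fixed total, a larger ribosomal share lowers the CPM of all other genes. The centring offsets this on average for the 2 libraries compared, but levels of the 4 libraries set side by side are not centred. With totals taken without ribosomal protein and mitochondrially encoded genes the median over all genes was -0.07. That choice shifts every ratio by the same amount, too little to change the sign of any called gene, so it is no check of direction.

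Translation factors went both ways. Of 39 measured genes 6 were lower and 4 higher, with a median of -0.26. The lower ones were the initiation factor 3 subunits EIF3E, EIF3F and EIF3L, the cofactor EIF4B and the elongation factors EEF1A1 and EEF2. EEF2, which moves the ribosome along the RNA, had 837 CPM after 24 h of paclitaxel, 1290 CPM after 72 h of DMSO, 925 CPM after 72 h of paclitaxel and 585 CPM after 24 h of DMSO, a relative log2 ratio of -0.75. EIF3L had 277 CPM after 24 h of paclitaxel and 454 CPM after 72 h of DMSO. The higher ones were EIF5, EIF2S1, EIF6 and EIF5A, of which EIF5, which triggers GTP hydrolysis in start codon selection, had 194 CPM after 24 h of paclitaxel and 92.7 CPM after 72 h of DMSO. Host genes of small nucleolar RNAs had 3 of 9 measured genes lower, none higher and a median of -0.44, with SNHG7 at 171 CPM after 24 h of paclitaxel and 243 CPM after 72 h of DMSO.

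Transcripts that begin with a C and a run of pyrimidines, the 5′ terminal oligopyrimidine (TOP) type, are known to include those of ribosomal proteins, translation factors and small nucleolar RNA hosts. The windows of 30 bases around the annotated starts of lower genes are shown because those 3 lists had medians below 0, although most of their members were not called. Capitals mark a C followed by 4 bases that are each C or T, beginning within 5 bases of the start, with overlapping matches joined. The windows, from RefSeq on GRCh38.p14, are chr9:133348208-133348237 (RPL7A, plus strand), chr22:39319604-39319633 (RPL3, minus strand), chr6:35468391-35468420 (RPL10A, plus strand), chr19:3985444-3985473 (EEF2, minus strand), chr12:53006446-53006475 (EIF4B, plus strand) and chr11:7987327-7987356 (EIF3F, plus strand).
RPL7A: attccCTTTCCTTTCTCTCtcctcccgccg
RPL3: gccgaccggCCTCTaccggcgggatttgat
RPL10A: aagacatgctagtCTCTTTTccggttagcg
EEF2: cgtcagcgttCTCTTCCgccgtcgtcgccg
EIF4B: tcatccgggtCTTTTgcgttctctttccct
EIF3F: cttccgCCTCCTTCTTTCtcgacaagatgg
Such a start was found in 52 of 67 ribosomal protein genes with a promoter in the table (77.6%), 15 of 29 translation factors (51.7%) and 5 of 6 small nucleolar RNA hosts, against 1420 of 6209 tested genes (22.9%) and 21.1% of all promoters. RPS4X, lower at 4502 CPM after 24 h of paclitaxel and 6534 CPM after 72 h of DMSO, had no match around its annotated start. Among lists with a median above 0, the share was 14.3% for nucleolar genes and 18.4% for the mitochondrial ribosome, but it was 5 of 11 S100 genes (45.5%), 4 of 10 genes of the NF-kB and chemokine list and 6 of 17 cytosolic heat shock genes (35.3%). A share above that of all tested genes was thus found in lists with medians on either side of 0.

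Some of the lowest ratios belong to genes that may hold reads of other genes. ZNF90 had 211 CPM after 24 h of paclitaxel, 551 CPM after 72 h of DMSO, 219 CPM after 72 h of paclitaxel and 156 CPM after 24 h of DMSO, the lowest ratio of the named genes at -1.51 (-1.54 to -1.48). NBEAL1 had 604 CPM after 24 h of paclitaxel and 1080 CPM after 72 h of DMSO. The NBEAL1 locus (chr2:203014879-203226378, GRCh38) encloses 4 annotated pseudogenes, of which the ribosomal protein pseudogenes RPL12P16 and RPL7P14 lie on its own strand. The ZNF90 locus (chr19:20077994-20127076) encloses 3, of which AC011447.1 alone lies on its own strand. Of the 15 highest genes EBNA1BP2 alone encloses a pseudogene, which is not on its own strand. NACA2, a near copy of NACA, and UQCRHL, a near copy of UQCRH, had ratios of -1.30 and -1.21. HNRNPA1, a splicing regulator with many processed copies, had 581 CPM after 24 h of paclitaxel and 948 CPM after 72 h of DMSO. How reads were split among such copies is not given in the sources used, so the levels of these genes are uncertain.

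Outside translation the lower genes named came from varied groups, and the list of late-culture genes described below held 5 lower genes. NDRG1, a gene induced by low oxygen and by differentiation, had 52.7 CPM after 24 h of paclitaxel, 96.9 CPM after 72 h of DMSO, 93.6 CPM after 72 h of paclitaxel and 24.9 CPM after 24 h of DMSO, a relative log2 ratio of -1.0 (-1.07 to -0.94). Both 72 h libraries stood above both 24 h libraries in NDRG1. SCD, the stearoyl-CoA desaturase that makes monounsaturated fatty acids, had 121 CPM after 24 h of paclitaxel and 210 CPM after 72 h of DMSO, beside 181 CPM after 72 h of paclitaxel and 83.9 CPM after 24 h of DMSO, again with the 72 h libraries on top. MFGE8, a secreted protein of milk fat globules, had 56.7 CPM after 24 h of paclitaxel and 95 CPM after 72 h of DMSO. IGBP1, a regulator of PP2A-type phosphatases, had 68.3 CPM after 24 h of paclitaxel and 127 CPM after 72 h of DMSO. SLFN5, of the Schlafen family, had 44.2 CPM after 24 h of paclitaxel, against 73.0 CPM after 72 h of DMSO. The histone gene HIST3H2A had 64.1 CPM after 24 h of paclitaxel and 118 CPM after 72 h of DMSO. Of 20 measured genes of cholesterol synthesis LSS alone was lower and none was higher, with a median of -0.23. QARS was the 1 lower gene among 22 tRNA synthetase genes, 4 of which were higher.

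Early drug-treated cells shared part of the levels of late untreated cells. Genes were taken as alike if they averaged 50 CPM or more over the 2 libraries and their relative ratio was under 1.2-fold. The ratio of their plain CPM can be larger. Of these, the 8 furthest above DMSO 24 h in both libraries, by CPM without centring, were RARRES1, MGP, KRT23, C3, TSTD1, CLDN1, C15orf48 and SLPI. RARRES1, a retinoid-responsive membrane protein, had 64.9 CPM after 24 h of paclitaxel, 56.1 CPM after 72 h of DMSO, 57.0 CPM after 72 h of paclitaxel and 9.48 CPM after 24 h of DMSO. MGP, an inhibitor of calcification, had 167 CPM after 24 h of paclitaxel, 168 CPM after 72 h of DMSO, 152 CPM after 72 h of paclitaxel and 42.2 CPM after 24 h of DMSO. In both genes DMSO 24 h was low and the other 3 libraries lay close together. CLDN1, a tight junction protein, had 84.3 CPM after 24 h of paclitaxel and 84.1 CPM after 72 h of DMSO, against 34.2 CPM after 24 h of DMSO. The complement component C3 had 59.9 CPM after 24 h of paclitaxel and 57.1 CPM after 72 h of DMSO, against 20.01 CPM after 24 h of DMSO. SLPI, an inhibitor of leukocyte proteases, had 136 CPM after 24 h of paclitaxel and 147 CPM after 72 h of DMSO, against 60.0 CPM after 24 h of DMSO, and was far higher after 72 h of paclitaxel at 272 CPM. These genes were picked for being alike in the 2 libraries and unlike DMSO 24 h, so their order is a description.

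The 8 genes furthest below DMSO 24 h in both libraries were BOLA3, GTF3A, C17orf89, MKI67, YBX1, CDKN2C, HMGN1 and PMEPA1. MKI67, the proliferation antigen Ki-67, had 89.4 CPM after 24 h of paclitaxel, 69.6 CPM after 72 h of DMSO, 42.8 CPM after 72 h of paclitaxel and 161 CPM after 24 h of DMSO. YBX1, an RNA-binding protein, had 1538 CPM after 24 h of paclitaxel, 1414 CPM after 72 h of DMSO, 1274 CPM after 72 h of paclitaxel and 2699 CPM after 24 h of DMSO. HMGN1, a nucleosome-binding protein, had 906 CPM after 24 h of paclitaxel and 800 CPM after 72 h of DMSO, against 1556 CPM after 24 h of DMSO. BOLA3, needed to assemble mitochondrial iron-sulfur proteins, had 293 CPM after 24 h of paclitaxel and 237 CPM after 72 h of DMSO, against 542 CPM after 24 h of DMSO. For each of these 4 genes paclitaxel 72 h was the lowest library and DMSO 24 h the highest.

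**Figure D4:**
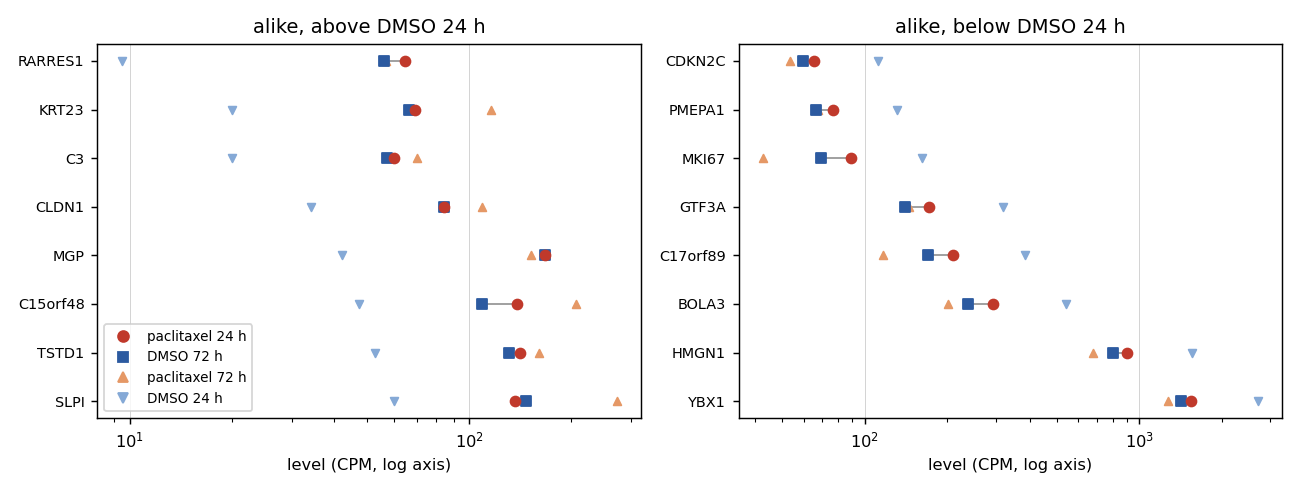
Levels in CPM on a log axis of the 8 genes furthest above (left panel) and the 8 furthest below (right panel) DMSO 24 h in both libraries, among genes with a relative ratio under 1.2-fold between paclitaxel 24 h and DMSO 72 h. Large red circles and blue squares, paclitaxel 24 h and DMSO 72 h, nearly coincide for MGP and CLDN1, while the small downward triangles of DMSO 24 h stand apart in every row by the choice of the genes.

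A list of 10 genes picked in these same libraries for a high level in late cultures is not independent evidence of its direction. Of its members 5 were lower after 24 h of paclitaxel (KRT15, GABRP, NDRG1, FARP1 and GLTSCR2), MMP7 was higher and 4 were not called, with a median of -0.39. Summed, the list stood at 1625 CPM after 24 h of paclitaxel and 1796 CPM after 72 h of DMSO, beside 1723 CPM after 72 h of paclitaxel and 667 CPM after 24 h of DMSO. GABRP, a GABA receptor subunit, had 63.6 CPM after 24 h of paclitaxel and 91.9 CPM after 72 h of DMSO, beside 23.9 CPM after 24 h of DMSO, so paclitaxel 24 h lay between the 2 DMSO libraries.

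The libraries were set against each other over the 2496 genes listed in all 4 and averaging 50 CPM or more across them. Ribosomal protein and mitochondrially encoded genes were left out. The median absolute relative log2 ratio between paclitaxel 24 h and DMSO 72 h was 0.24. It was 0.22 between paclitaxel 24 h and paclitaxel 72 h, and 0.20 between paclitaxel 24 h and DMSO 24 h. The library of early drug-treated cells thus lay 0.20 to 0.24 from each of the others, while the DMSO libraries of 72 h and 24 h lay 0.33 apart. These pairs share libraries and are not independent of each other. Of the same genes 10.1% were past 1.5-fold between paclitaxel 24 h and DMSO 72 h, and 24.7% between DMSO 72 h and DMSO 24 h.

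Fewer cells were called G1 after 24 h of paclitaxel. Phases were called from 44 S phase and 56 G2/M genes after each cell was thinned to 20000 UMIs, which left out 26 shallower cells after 24 h of paclitaxel and 17 after 72 h of DMSO. G1 was called in 256 of 750 cells (34.1%, 30.7 to 37.7) after 24 h of paclitaxel and in 382 of 766 cells (49.9%, 46.3 to 53.5) after 72 h of DMSO, with exact binomial 95% intervals. The share was 64.9% after 72 h of paclitaxel and 13.1% after 24 h of DMSO. S phase was called in 36.5% of cells after 24 h of paclitaxel and 27.9% after 72 h of DMSO, and G2/M in 29.3% after 24 h of paclitaxel and 22.2% after 72 h of DMSO. Within 0.05 of the cut between G1 and the other phases lay 8.53% of cells after 24 h of paclitaxel and 11.4% after 72 h of DMSO. Cells close to the boundary between S and G2/M were not counted.

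**Figure D5:**
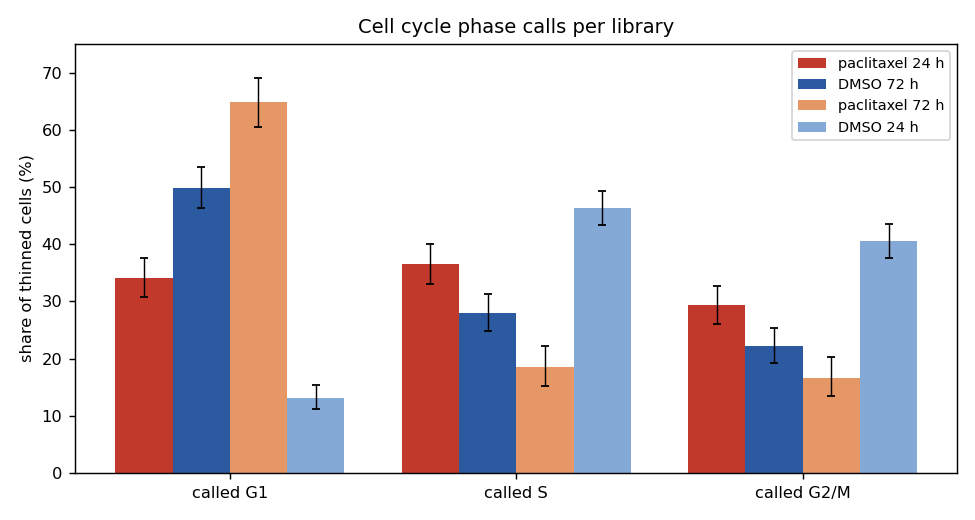
Share of thinned cells (percent) called G1, S and G2/M in each library; bars start at 0 and whiskers are exact binomial 95% intervals, which cover counting error only. Paclitaxel 24 h has 34.1% of cells called G1 and DMSO 72 h 49.9%, between the 13.1% of DMSO 24 h and the 64.9% of paclitaxel 72 h.

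Over all cells, genes of mitosis were higher in part: 15 of 54 measured G2/M genes were higher and none lower, with a median of 0.43. Among cells of the same called phase the median of this list was smaller, as given below. CCNB1, the mitotic cyclin B1, had 38.0 CPM after 24 h of paclitaxel, 15.2 CPM after 72 h of DMSO, 26.1 CPM after 72 h of paclitaxel and 29.4 CPM after 24 h of DMSO, a relative log2 ratio of 1.2 (1.08 to 1.32). CCNB1 was highest in the paclitaxel 24 h library, which MKI67 was not. The mitotic kinase AURKA had 72.7 CPM after 24 h of paclitaxel and 33.2 CPM after 72 h of DMSO. PLK1, another such kinase, had 31.9 CPM after 24 h of paclitaxel, against 15.7 CPM after 72 h of DMSO. TOP2A, a topoisomerase of dividing cells, was not called at 129 CPM after 24 h of paclitaxel and 110 CPM after 72 h of DMSO. Of 40 measured S phase genes 10 were higher and TIPIN was lower, with a median of 0.31. GMNN, the replication licensing inhibitor geminin, had 35.7 CPM after 24 h of paclitaxel and 15.5 CPM after 72 h of DMSO. HIST1H4C, a histone gene of S phase, was not called at 381 CPM after 24 h of paclitaxel and 470 CPM after 72 h of DMSO, and was far higher at 1093 CPM after 24 h of DMSO. Histone RNA mostly lacks a poly(A) tail, which the capture needs. None of 8 measured proliferation transcription factors was called, FOXM1 and MYBL2 among them.

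The libraries differ in their mix of phases, so the lists were also compared among cells of 1 called phase. Among cells called G1, 6 of 9 measured tubulin genes were higher with a median of 1.02, and 14 of 31 proteasome genes with a median of 0.54. In cells called G2/M the proteasome had 24 of 31 genes higher, a median of 0.88, and the tubulins 6 of 10, a median of 0.73. The median of the ribosomal protein genes was -0.34 in cells called G1, -0.36 in S and -0.46 in G2/M. The G2/M list had a median of 0.17 in cells called G1, -0.0002 in S and 0.11 in G2/M, where 9 of 56 genes were higher. The S phase list had a median of 0.27 in G1, 0.05 in S, where 1 of 42 genes was higher, and 0.21 in G2/M. Genes of these same lists were used to call the phases. Over all genes, 5.39% were higher and 1.91% lower among cells called G1, 4.73% higher and 1.3% lower in S, and 10.7% higher and 6% lower in G2/M. Of the interferon list 8 of 31 measured genes were higher in cells called G1, 4 of 27 in S, and in G2/M 1 of 25 was higher and 3 were lower. ISG15 had 899 CPM after 24 h of paclitaxel and 345 CPM after 72 h of DMSO among cells called G1. Among cells called G2/M it had 309 CPM after 24 h of paclitaxel and 238 CPM after 72 h of DMSO. The basal list had 9 of 17 genes higher and none lower among cells called G1, with a median of 0.61, and 6 of 16 higher and none lower in S, with a median of 0.45. In G2/M 5 of its 16 measured genes were higher and 2 lower, with a median of 0.12. KRT15 lost its call among cells called G1, at 270 CPM after 24 h of paclitaxel and 336 CPM after 72 h of DMSO, but among cells called G2/M it had 55.9 CPM after 24 h of paclitaxel and 126 CPM after 72 h of DMSO. GADD45A had its largest ratio in cells called G1, 2.02, and 0.45 in cells called G2/M. These differences between phases were not tested.

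Shares of cells with a UMI, taken after thinning, show how widely a difference was spread. IFI6 was detected in 83.5% of cells after 24 h of paclitaxel and 63.1% after 72 h of DMSO, and CACYBP in 76.1% after 24 h of paclitaxel and 50.7% after 72 h of DMSO. Both were found in most cells of both libraries. CXCL8 was detected in 32.7% of cells after 24 h of paclitaxel (29.3 to 36.2) and 11.5% after 72 h of DMSO (9.32 to 14), and the tenth of cells with the most CXCL8 held 82.7% of its thinned UMIs after 24 h of paclitaxel and 94.2% after 72 h of DMSO. A single thinned cell held 381 of these UMIs after 24 h of paclitaxel. Without thinning, the top cell held 10.9% of CXCL8 UMIs after 24 h of paclitaxel and 6.15% after 72 h of DMSO, and the top 10 cells 38.6% after 24 h of paclitaxel and 39.6% after 72 h of DMSO. TUBA1B was detected in 96.1% of cells after 24 h of paclitaxel and 82.8% after 72 h of DMSO, and KRT15 in 70.9% after 24 h of paclitaxel and 86.6% after 72 h of DMSO. Unthinned, CXCL8 was detected in 53.1% of cells after 24 h of paclitaxel and 22.5% after 72 h of DMSO. CXCL1, after thinning, was detected in 71.2% of cells after 24 h of paclitaxel and 42.3% after 72 h of DMSO. The tenth of cells with the most CXCL1 held 65.0% of its UMIs after 24 h of paclitaxel and 58.6% after 72 h of DMSO. A single thinned cell held 804 CXCL1 UMIs after 24 h of paclitaxel, against at most 28 in a cell after 72 h of DMSO. A cell line holds no cell type that should lack these genes, so the background from free RNA could not be measured.

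The largest ratio of any tested gene rested on few cells. SPRR2E, a cornified envelope protein of squamous epithelium below the level needed for the named genes and picked here after its values were seen, had 29.7 CPM after 24 h of paclitaxel, 0.630 CPM after 72 h of DMSO, 4.56 CPM after 72 h of paclitaxel and 12.5 CPM after 24 h of DMSO, a relative log2 ratio of 5.43. A single cell held 48.4% of its UMIs after 24 h of paclitaxel, and 10 cells held 84.0%. SPRR1B, of the same family, had 11 CPM after 24 h of paclitaxel, with 81.6% of its UMIs in 10 cells, and was missing from the DMSO 72 h table, which lists only genes with a UMI in at least 8 cells. AREG, an EGFR ligand also picked after its values were seen, was detected more widely. It had a UMI in 421 cells after 24 h of paclitaxel and 263 cells after 72 h of DMSO. A single cell still held 12.5% of AREG UMIs after 24 h of paclitaxel, and 10 cells held 41.1%. After 72 h of DMSO these shares were 9.29% and 32.7%. The AREG level was 50.1 CPM after 24 h of paclitaxel and 14.9 CPM after 72 h of DMSO. LY6D, a surface protein of stratified epithelium picked in the same way, lay at the other end with 10.9 CPM after 24 h of paclitaxel and 29.7 CPM after 72 h of DMSO, a ratio of -1.58.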

How the data were processed

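Single cells of 4 groups, 1 library each, were profiled by 10x Chromium capture of poly(A) RNA, per the labels' protocols. The deposited values are raw counts of UMIs per gene symbol and barcode, with no normalization; the genome was GRCh38 and the software Cell Ranger 2.0, per the submitters' processing notes, and the rule for choosing barcodes is not given in the sources used. Every listed gene had a UMI in about 1% of the cells of its table or more (at least 8 cells in the paclitaxel 24 h and DMSO 72 h tables), so a missing gene is not a measured 0. Barcodes with under 20% of UMIs from MT- genes and at least 500 genes were kept; 2 barcodes after 24 h of paclitaxel and 5 after 72 h of DMSO were left out, all for their MT- share. The highest kept share was 18.9% after 24 h of paclitaxel and 19.3% after 72 h of DMSO, and the lowest left out 29.1% and 20.4%. Kept UMIs were summed per library and scaled to CPM. Ratios carry exact (Clopper-Pearson) 95% intervals for 2 Poisson counts. No p-value was computed. Cells were not removed as doublets: Scrublet marked 4 after 24 h of paclitaxel and 1 after 72 h of DMSO, too few of these cells for the caller to be relied on.

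The genes named are the 15 highest and 15 lowest relative ratios among genes averaging 50 CPM or more, MT- and ribosomal protein genes left out; the 8 above and 8 below DMSO 24 h among genes alike in the 2 libraries; up to 4 members of each of 43 lists with the largest absolute ratio, and members that complete a family; and a fixed set of 31 genes. Some genes that this rule names are not reported here. The members and lists were chosen with earlier results of these data known. Of 190 named symbols 187 had 1 locus in GENCODE 29, from which positions were taken. Of 7967 tested genes 6209 matched the RefSeq promoter table. Motifs searched on both strands were the interferon element (GAAA repeated after 2 free bases), the kappaB palindrome (GGAATTTCC), the endoplasmic reticulum stress element (CCAAT, with CCACG after 9 free bases), the heat shock element (GAA, then TTC and GAA, each after 2 free bases), the cell cycle homology region (TTTGAA), the CCAAT box and the ATF palindrome (TGACGTCA). The CCAAT box lies inside the stress element. The TOP-type start was searched on the sense strand.

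The calculation was checked on simulated counts with known fold changes. These were drawn with counting error only, which the intervals also assume, so the check does not cover spread between cells or libraries. Alternatives covered scaling, cell filters, the level minimum and the fold. Tools were Python 3.11.15, numpy 2.4.6, scipy 1.17.1, pandas 2.3.3, scanpy 1.11.5, matplotlib 3.10.9 and edgeR 4.0.16 (TMM factors only).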

Additional observations from a re-analysis of the deposited data

How the results depend on the processing

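The main setting called 561 genes higher and 196 lower after 24 h of paclitaxel. No centring gave 913 and 76, and edgeR's TMM factors without centring 757 and 118. Totals without ribosomal protein and MT- genes gave 408 and 314. Cells of 30000 to 100000 UMIs gave 317 higher and 119 lower. A mean of at least 50 CPM gave 176 and 98 of 2385 genes, and no minimum 1161 and 829 of 16126 genes. A fold of at least 2 gave 71 and 17. The stricter MT- limit of 10%, all barcodes, cells called G1, the mean of per-cell CPM and leaving out doublets kept both counts within 1.5 times of the main ones. None of 126 called named genes changed direction under any setting that could give it a value. With no centring, TMM, totals without ribosomal protein and MT- genes or another level minimum, this was fixed in advance. These settings shift all ratios by the same amount, too small to reverse a call. Of the 126 genes, 113 kept their call with no centring, 118 with TMM and 116 without ribosomal protein and MT- genes in the totals. In cells of 30000 to 100000 UMIs 96 of 124 kept it, and in cells called G1 88 of 117. The median of the interferon list lay between 0.00 and 0.34, that of the p53 targets between -0.14 and 0.05, and that of the luminal list between -0.15 and 0.25, so the sign of the last 2 depends on the setting. The sign also depended on the setting for the immediate-early (-0.18 to 0.18), glycolysis and hypoxia (-0.09 to 0.16) and apoptosis (-0.06 to 0.23) lists. It did so too for the S100 (-0.02 to 0.25) and mitochondrially encoded (-0.16 to 0.07) genes. Medians of the matrix protease list ran from 0.15 to 0.65, and those of the G2/M list from 0.16 to 0.55. Tubulin medians lay between 0.48 and 1.02, proteasome medians between 0.54 and 0.80, and ribosomal protein medians between -0.51 and -0.30. No paired analysis was possible because each group has 1 library and no test was made. Depth limits genes near 10 CPM, which rest on about 500 UMIs a library.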
